A study of Mus musculus with 9 samples.

Results

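The genes described here are the 36 of 56691 that carry no KEGG pathway in the deposited annotation, rose with RANKL and were lower when uridine (UD) was added. KEGG pathway maps are curated drawings of known pathways, and genes without one are skipped by pathway analyses. RAW264.7 is a macrophage line of the mouse, and RANKL, the cytokine that starts osteoclast differentiation, turns its cells osteoclast-like. The control libraries came from RAW264.7 cells without RANKL, the RANKL libraries from cells given RANKL, and the RANKL + UD libraries from cells given both, with 3 libraries in each group. The study's methods give RANKL at 50 ng/mL and harvest at 3 days. The UD dose used for the RNA is not named there, and no group with UD alone was analysed here. The labels call the libraries separate biosamples of this single line but do not name separate cultures, so the spread between libraries may be partly technical.

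Osteoclasts form when macrophage precursors fuse and switch on genes for acid secretion, matrix digestion and attachment to bone. RANKL acts through its receptor RANK, NF-κB and AP-1 to raise NFATc1, the transcription factor that drives most osteoclast genes, while proteins such as PRDM1 silence repressors of that program. Several osteoclast genes, including transporters and surface receptors, carry no pathway in the deposited annotation and so do not enter an analysis of those maps.

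Membership was set by level. FPKM, the read count of a gene divided by its exonic length and by the library's total count, was averaged over each group, and 0.1 was added to each mean. Of 40611 genes without a KEGG pathway, 39260 remained after the fusion and receptor genes Dcstamp, Ocstamp and Oscar and symbols starting with Mir or Snor were left out. Of these, 4444 reached 3 in RANKL, 97 of those were at least 3 times the control level, and 36 of those were at 0.65 or less of the RANKL level in RANKL + UD. The other 61 had a ratio above 0.65. Ocstamp met every number, with a ratio of 0.559, and was left out by name only. The members were thus chosen by their mean FPKM in all 3 groups, and their folds and ratios are descriptions with no test.

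The limits ran through continuous values. At the RANKL level, Gm22301 (3.15) and Gm15726 (3.23) lay just inside and Slc36a3os (just under 3) and Cd200 (2.91) just outside. At the rise, Gm15726 and Cyp4v3 (both 3.10) lay inside, and Gm9821 (2.93) and Plekhn1 (2.82) outside. At the ratio, C77080 (0.648) and Zc3h12d (0.644) lay inside, and Hormad1 (0.661) and Edil3 (0.662) outside.

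**Figure D1:**
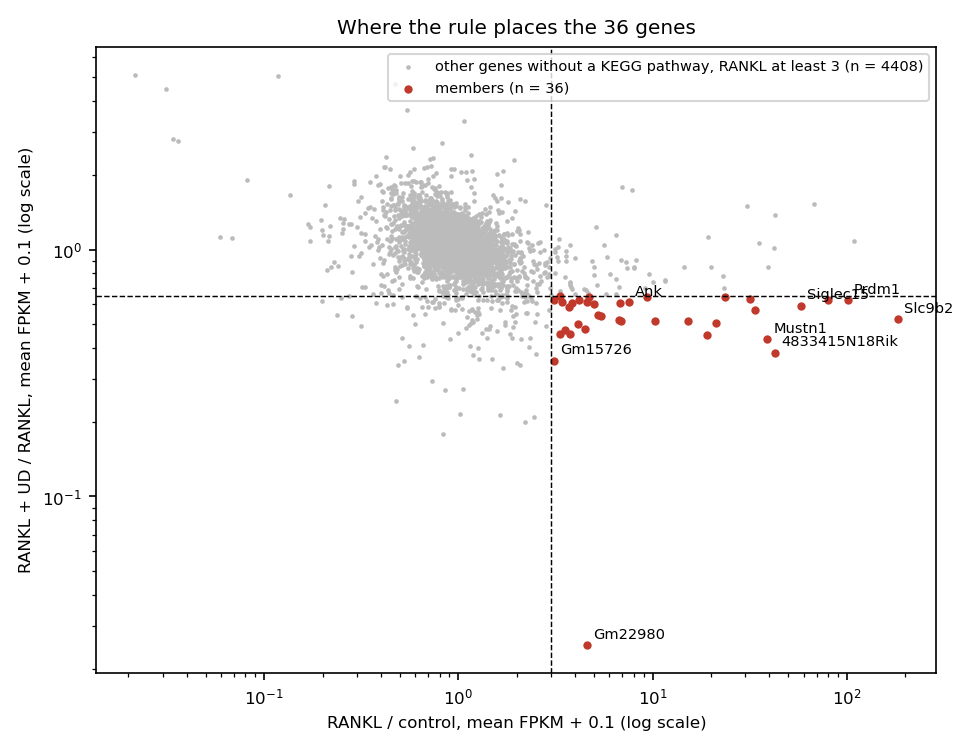
Each point is a gene without a KEGG pathway and with a RANKL mean of at least 3 (FPKM + 0.1). The horizontal axis is RANKL over control and the vertical axis RANKL + UD over RANKL, both on log scales, and dashed lines mark the limits of 3 and 0.65. The 36 red members fill the lower right corner, with Slc9b2 farthest right and Gm22980 lowest.

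The depth was 15951800 to 19746862 counts per library. All 36 genes passed the expression filter of FPKM 1 or more in 3 libraries, as did 11995 genes in all. The summed FPKM of 14 macrophage markers was 9526 to 10118 in control, 2589 to 2831 in RANKL and 2270 to 2406 in RANKL + UD. Most of it was Lyz2 (means 8000, 1431 and 1285), while Mertk reached at most 0.05 in any library. Of 12 tested markers, 2 (Cd68 and Cd80) rose and 10 fell with RANKL, beside 27.4% and 30.2% of all tested genes. With UD 2 rose and 6 fell, beside 18.6% and 20.2%. Among 10 dendritic cell markers the summed FPKM moved like the members, at 14.7 to 15.2 in control, 41.1 to 45.1 in RANKL and 18.3 to 19.8 in RANKL + UD. Nearly all of it was Itgax, an integrin that macrophage-lineage cells also carry, which fell with UD (log2 fold change −1.37, adjusted p = 2.12e-13), while the receptor gene Flt3 was at 0 in every library. Zbtb46, a dendritic cell transcription factor, rose with RANKL (0.32 to 0.977 FPKM, adjusted p = 1.94e-07) and measured 1.12 with UD (adjusted p = 0.669). It passed the expression filter only through RANKL and RANKL + UD libraries, which favoured its rise. Siglech, on the same list, went the other way, from 0.11 to 0.19 FPKM in the control libraries to 0 in all others. Fscn1, an actin-bundling protein, was at 0 in control and at 0.43 to 0.65 FPKM in the other libraries. The part of these cells in the results was not tested. Summed stromal markers reached at most 1.46 and lymphocyte markers at most 0.3, with 5 of 8 lymphocyte genes at 0. In bulk RNA, fewer osteoclast-like cells and less RNA per cell cannot be told apart.

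As a sum, the 36 genes were lowest in control, highest in RANKL and intermediate with UD, while Gm22980 was at 0 in every RANKL + UD library. Their summed FPKM was 150.4 to 152.4 in the control libraries, 1008 to 1033 in RANKL and 597 to 600.2 in RANKL + UD. Ank alone made 58.2% of the RANKL sum, and without it the mean sums were 72.4, 427 and 236. The median rise over control was 6.06-fold, and 13 members rose at least 10-fold. That median is the same with the genes at 0 in control set to their lower bounds, since both lie above it. The median RANKL + UD to RANKL ratio was 0.556. A median of 46.6% of the RANKL rise was left with UD.

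The 3 groups mostly did not overlap. All RANKL + UD libraries lay below all RANKL libraries for 33 of 36 members, beside a background of 17.6% of tested genes. RANKL lay above control without overlap for 34, beside 22.9%. RANKL + UD lay above control without overlap for 30, beside 29.5%. By edgeR's adjusted p under 0.05, 35 members were called higher in RANKL, 31 lower with UD and 31 higher in RANKL + UD than in control, beside 27.4%, 20.2% and 26.7% of all tested genes. The rule used these contrasts, so nothing is read from the counts. The members without the UD call were Gm22301, Gm25776, Platr3, Gm44659 and the U1 gene, with 19 to 159 counts summed over the RANKL libraries.

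**Figure D2:**
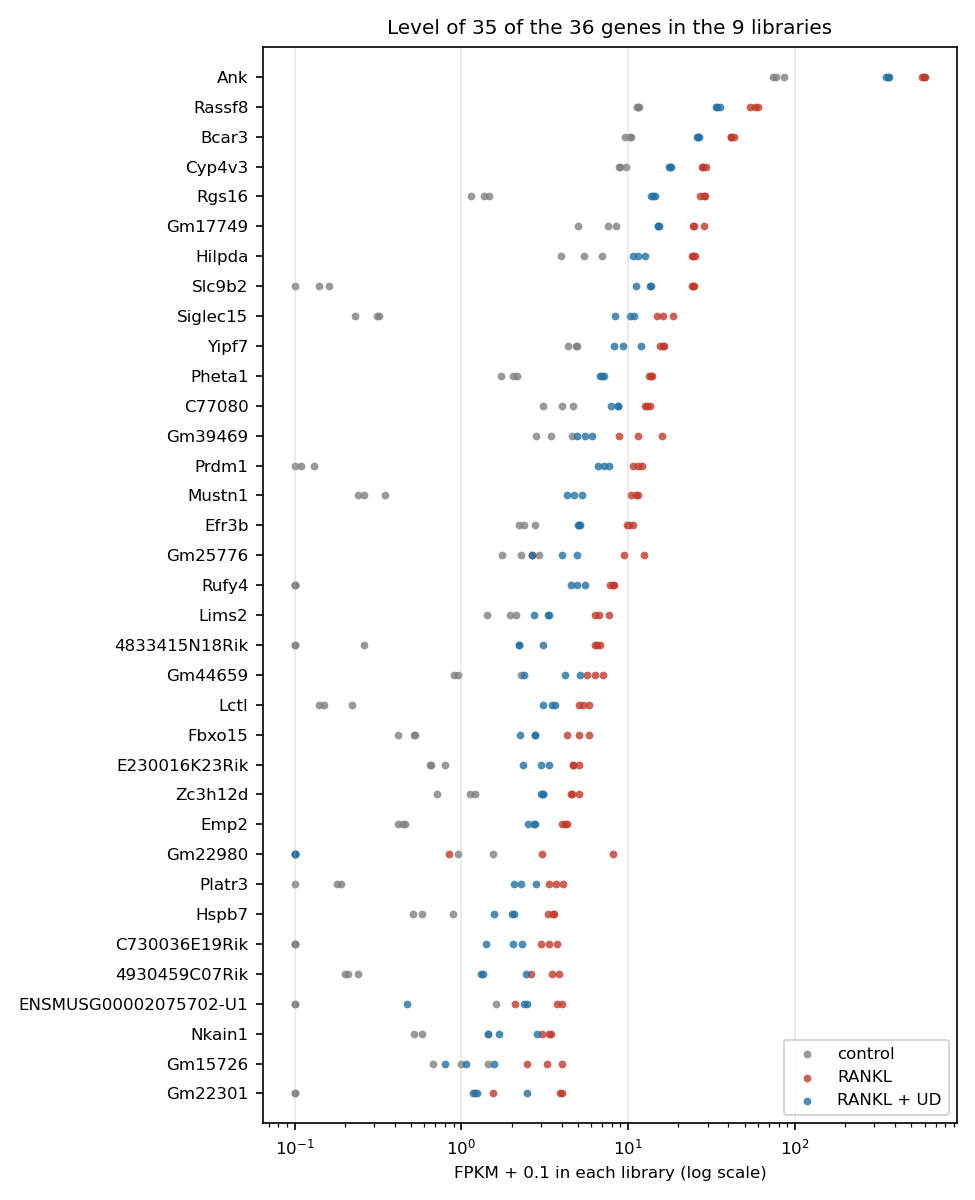
FPKM + 0.1 on a log scale (horizontal) in each of the 9 libraries for 35 of the 36 members (vertical), ordered by mean RANKL level, with control in grey, RANKL in red and RANKL + UD in blue. The blue points lie between grey and red for most genes, and the groups mix for the lowest small RNA genes.

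Promoter sequences of 5 members are printed here to show which binding motifs do and do not lie near the starts of genes that move together. RefSeq start sites in GRCm38.p6 gave 28 windows for 23 members, each with 250 bases before the start and 50 after it. Capitals mark the AP-1 motif TGANTCA, the NFAT core TGGAAA and the PU.1 motif AGGAAGT, searched on both strands. An NFAT core on the reverse strand thus reads as its reverse complement, TTTCCA. Rufy4 (chr1:74125441-74125540, plus strand), Prdm1 (chr10:44458749-44458848, minus strand) and C77080 (chr4:129261405-129261504, minus strand) each had an AP-1 motif 41 to 48 bases before the start, and Rufy4 also an NFAT core. The window of Mustn1 (chr14:30879047-30879146, plus strand) held 3 NFAT cores and 2 PU.1 motifs. Slc9b2 (chr3:135307600-135307699, plus strand), the member with the highest rise on the FPKM + 0.1 scale, is shown for contrast and held none of these letters.
Rufy4: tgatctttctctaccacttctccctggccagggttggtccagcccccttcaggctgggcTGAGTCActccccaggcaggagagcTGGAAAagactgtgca
Prdm1: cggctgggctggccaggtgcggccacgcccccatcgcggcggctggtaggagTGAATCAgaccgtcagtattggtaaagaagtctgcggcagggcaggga
C77080: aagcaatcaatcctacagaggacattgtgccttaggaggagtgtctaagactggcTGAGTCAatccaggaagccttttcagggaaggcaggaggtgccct
Mustn1: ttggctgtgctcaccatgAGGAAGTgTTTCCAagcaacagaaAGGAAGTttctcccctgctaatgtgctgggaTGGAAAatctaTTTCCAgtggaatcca
Slc9b2: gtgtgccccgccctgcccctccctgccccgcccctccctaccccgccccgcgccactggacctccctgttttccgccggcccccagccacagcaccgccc

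Over the full windows, the AP-1 motif was in 17.9% of the members' windows (4 genes, the fourth being Hilpda) and in 7.81% of all 32851 windows. The NFAT core was in 21.4% of both sets. The PU.1 motif was in 14.3% and 9.35%, and the NF-κB motif in 3.57% and 1.63%. The MITF motif TCANGTGA was in 4.18% of all windows and in no window of a member, and the TATA box TATAAA in 7.14% and 13.6%. A match describes letters only, and the windows of members with several starts are not independent.

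Transporters and membrane proteins included Ank, the member with the highest RANKL level, and Slc9b2, the member with the highest rise on the FPKM + 0.1 scale. Ank (chromosome 15, 27466763 to 27594995 in the deposited coordinates), a membrane protein needed for export of pyrophosphate and ATP that restrains mineral deposition, measured 73.8, 77.2 and 85.6 FPKM in control, 581, 607 and 594 in RANKL and 354, 364 and 369 in RANKL + UD. Its mean rose 7.53-fold to 594 ± 13 FPKM (SD, n = 3) and was 0.61 of that with UD. The libraries of each group were tight and well apart.

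Slc9b2 (chromosome 3, 135013461 to 135051148), a sodium/proton antiporter strongly expressed in osteoclasts, measured 0, 0.04 and 0.06 FPKM in control, 24.0, 24.9 and 24.4 in RANKL and 13.6, 13.4 and 11.1 in RANKL + UD. It rose 184-fold on the FPKM + 0.1 scale, and its ratio was 0.522. Siglec15 (chromosome 18, 78086829 to 78100610), a sialic acid receptor that signals through DAP12 in osteoclast precursors, measured 0.21, 0.13 and 0.22 FPKM in control, 16.2, 18.4 and 14.8 in RANKL and 10.2, 10.7 and 8.26 in RANKL + UD. It rose 57.8-fold and its ratio was 0.593, and the RANKL and RANKL + UD libraries did not overlap. Efr3b, which helps to anchor a phosphatidylinositol kinase at the plasma membrane, went from 2.35 ± 0.294 in control to 10.1 ± 0.426 in RANKL and 4.99 ± 0.0961 in RANKL + UD. Emp2, a tetraspan membrane protein, reached 4.07 ± 0.137 in RANKL with a ratio of 0.639. Nkain1, a protein that binds the sodium pump, reached 3.18 ± 0.197 in RANKL, but its control and RANKL + UD libraries overlapped.

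Signalling adaptors were the next most abundant. Rassf8, a Ras-association domain protein, measured 11.5, 11.2 and 11.4 FPKM in control, 60.3, 57.8 and 53.5 in RANKL and 35.7, 33.5 and 33.8 in RANKL + UD. It rose 5.00-fold and its ratio was 0.601. Bcar3, an exchange factor-like adaptor that binds the scaffold p130Cas, measured 10.2, 9.47 and 10.3 in control, 41.5, 41.6 and 42.9 in RANKL and 26.3, 26.4 and 25.8 in RANKL + UD. With UD, Rassf8 kept 50.1% and Bcar3 50.6% of the rise. Rgs16, which shortens G protein signalling by speeding GTP hydrolysis, measured 1.04, 1.26 and 1.37 in control, 28.3, 28.8 and 27.0 in RANKL and 14.4, 14.1 and 13.6 in RANKL + UD, a 21.3-fold rise with a ratio of 0.502.

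Members with roles in trafficking were Yipf7, Pheta1 and Rufy4. Yipf7, a Golgi membrane protein family member, measured 4.77, 4.82 and 4.27 FPKM in control, 16.2, 15.4 and 16.3 in RANKL and 9.26, 8.15 and 11.8 in RANKL + UD, with a ratio of 0.613. Rufy4, which takes part in autophagosome and lysosome positioning, was at 0 in all control libraries and measured 8.17, 7.66 and 7.97 in RANKL and 4.85, 4.47 and 5.44 in RANKL + UD. Against a floor of 3 counts over the control group, the rise was at least 324-fold. Pheta1, an endosomal adaptor of the phosphatase OCRL, went from 1.88 ± 0.216 in control to 13.5 ± 0.281 in RANKL and 6.88 ± 0.193 in RANKL + UD. No control library of these genes reached a RANKL + UD library.

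The nuclear, RNA and ubiquitin regulators differed widely in rise. Prdm1, the repressor known as Blimp1 that silences Irf8 and Bcl6 in osteoclast precursors, measured 0.03, 0 and 0.01 FPKM in control, 12.0, 10.7 and 11.4 in RANKL and 7.04, 7.60 and 6.52 in RANKL + UD. It rose 101-fold on the FPKM + 0.1 scale, from control counts of 3, 0 and 1, and kept 62.1% of its rise. Mustn1, a small nuclear protein first described in muscle and skeletal tissue, measured 0.14, 0.16 and 0.25 in control, 11.1, 10.3 and 11.4 in RANKL and 5.19, 4.66 and 4.22 in RANKL + UD. Its ratio of 0.434 was the lowest of the coding members. Zc3h12d, of the Regnase family of RNA-degrading proteins, reached 4.66 ± 0.297 in RANKL with a ratio of 0.644, and Fbxo15, an F-box protein of a ubiquitin ligase, reached 4.97 ± 0.775 with a ratio of 0.513.

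Metabolic genes among the members were Cyp4v3, Hilpda and Lctl. Cyp4v3, a cytochrome P450 of fatty acid oxidation, measured 8.78, 9.67 and 8.79 FPKM in control, 27.8, 27.9 and 29.4 in RANKL and 17.5, 17.6 and 17.96 in RANKL + UD, with a ratio of 0.625. Hilpda, a lipid droplet protein that inhibits the lipase ATGL and responds to hypoxia, measured 6.84, 5.37 and 3.86 in control, 23.9, 24.3 and 25.1 in RANKL and 12.6, 11.4 and 10.7 in RANKL + UD, and kept 32.4% of its rise. Lctl, which resembles a family of sugar-cleaving enzymes, measured 0.05, 0.04 and 0.12 in control, 5.73, 5.25 and 5.00 in RANKL and 3.56, 3.01 and 3.40 in RANKL + UD, a 31.9-fold rise. For each of these genes all RANKL + UD libraries lay between the other groups.

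Members with cytoskeletal and chaperone roles included Lims2 and Hspb7. Lims2, a partner of integrin-linked kinase at adhesion sites, measured 2.04, 1.32 and 1.86 FPKM in control, 6.20, 7.58 and 6.63 in RANKL and 2.61, 3.25 and 3.22 in RANKL + UD, with a ratio of 0.453. Hspb7, a small heat shock protein, reached 3.38 ± 0.163 in RANKL with a ratio of 0.541. C77080, a coding gene whose role is not given here, reached 13.0 ± 0.525 with the highest ratio of the members, 0.648.

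**Figure D3:**
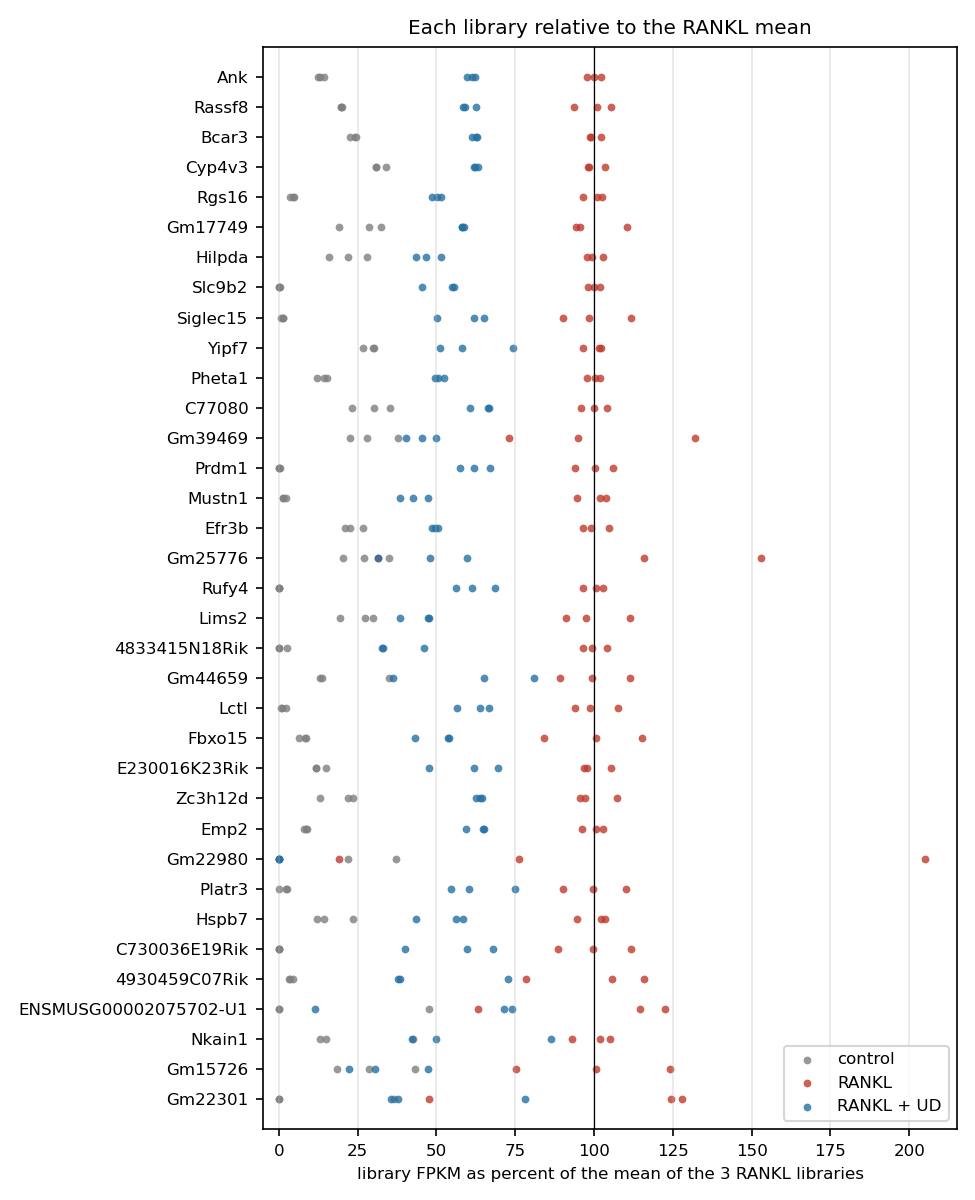
FPKM of each library as percent of the mean of the 3 RANKL libraries (horizontal, linear) for 35 of the 36 members (vertical), with control in grey, RANKL in red and RANKL + UD in blue. Most blue points lie between 40 and 70 percent, and the wide red spreads belong to Gm22980, Gm25776 and other genes with few counts.

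Non-coding genes made up 13 of the 36 members by GENCODE M21 or by name. They comprised 6 lincRNAs, 2 processed transcripts, 1 antisense transcript, 2 snoRNAs, 1 snRNA and 1 U1 gene that this annotation does not list. None of the 13 had a GO term, and every coding member had one. Members without a GO term were 36.1% of the group, beside 22.0% of the 6692 tested genes without a KEGG pathway and 19.7% of the 61 RANKL-induced genes with a ratio above 0.65. lincRNAs were 16.7% of members, 1.64% of the 61 and 3.20% of the tested genes without a pathway.

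The lincRNA 4833415N18Rik measured 0, 0 and 0.16 FPKM in control, 6.72, 6.24 and 6.42 in RANKL and 2.98, 2.13 and 2.11 in RANKL + UD. With 3 control counts, its count ratio of RANKL to control was 133 (95% counting interval 45.3 to 649), and its ratio with UD was 0.382. C730036E19Rik was at 0 in all control libraries and measured 2.90, 3.66 and 3.26 in RANKL and 2.22, 1.95 and 1.31 in RANKL + UD, a rise of at least 63.2-fold. Gm17749, the most abundant non-coding member, measured 8.40, 7.43 and 4.94 in control, 24.7, 24.4 and 28.6 in RANKL and 15.1, 15.2 and 15.1 in RANKL + UD. In these genes the RANKL + UD libraries lay below every RANKL library.

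Gm39469 measured 4.54, 3.37 and 2.71 FPKM in control, 15.8, 11.4 and 8.74 in RANKL and 4.83, 5.97 and 5.43 in RANKL + UD. Its RANKL libraries spread widely, and only 22.2% of its rise was left. The antisense transcript Gm15726 measured 0.58, 0.90 and 1.35 in control, 3.89, 3.15 and 2.36 in RANKL and 0.70, 0.96 and 1.48 in RANKL + UD. Its control and RANKL + UD libraries overlapped, with 4.72% of the rise left. Platr3 had 2 control counts in all, a count ratio of 69.5 (18.9 to 579) and the largest share of its rise left, 62.7%. The remaining lincRNA and transcript genes, Gm44659, E230016K23Rik and 4930459C07Rik, had RANKL means of 6.26 ± 0.701, 4.71 ± 0.22 and 3.22 ± 0.625 FPKM.

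The 4 small RNA genes rested on few reads, and the libraries were poly(A)-selected, which small RNAs mostly escape. Gm22980, a 70-base snoRNA gene, had 11, 4 and 1 counts in the RANKL libraries and 0 in every RANKL + UD library, at least 4.88-fold lower. Its control counts of 1, 2 and 0 overlapped the RANKL counts. Gm25776, a snoRNA gene inside Gtf2a1, measured 1.66, 2.83 and 2.19 FPKM in control, 12.4, 9.41 and 2.55 in RANKL and 3.91, 2.57 and 4.86 in RANKL + UD. RANKL replicate 3 lay below every RANKL + UD library.

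The gene named U1 (ENSMUSG00002075702, inside Bcar3 on the same strand) measured 1.52, 0 and 0 FPKM in control, 3.90, 3.65 and 2.01 in RANKL and 2.28, 2.36 and 0.37 in RANKL + UD. Gm22301, an snRNA gene, measured 1.11, 0 and 0 in control, 3.79, 1.45 and 3.90 in RANKL and 2.38, 1.15 and 1.08 in RANKL + UD, and its control sum of 2 counts gave a count ratio of 8.57 (2.07 to 75.9). RANKL and RANKL + UD libraries overlapped for U1, Gm22301 and Gm25776. Reads of such genes can also come from near-identical copies and from the host transcripts.

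The ratios were also described in libraries left out of the means that chose the genes. The rule itself was set with earlier results of these data known, so the held-out libraries are no independent check of it. The rule was applied to 6 libraries, and the 3 libraries with the remaining replicate number were described. With replicates 1, 2 and 3 held out in turn, 32, 38 and 40 genes were chosen. RANKL + UD lay below RANKL in the held-out libraries for 31 of 32, 38 of 38 and 37 of 40. The median held-out ratio was 0.596, 0.561 and 0.5996, above the 0.571, 0.516 and 0.554 of the choosing libraries. The whole rule was met in the held-out libraries by 23, 21 and 23 genes, and the largest held-out ratio with replicate 3 held out was 11.8. A ratio of 0.65 or less was kept by 25, 28 and 28 genes, while 6.65%, 6.80% and 6.47% of the tested genes without a KEGG pathway had one. Those tested genes were not chosen for a rise with RANKL, so they are not a like background. Of the 97 genes that met the RANKL conditions over all 9 libraries, 36 had such a ratio. The labels do not name separate cultures, so the held-out libraries may not be independent.

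Nuclear GO terms were held by 5 members (13.9%, beside 28.0% of the tested genes without a pathway and 22.95% of the 61 induced genes with a higher ratio). Membrane terms were held by 13 members (36.1%, beside 32.9% and 44.3%). Lysosome, endosome or vesicle terms were held by 5 members, among them Emp2, Slc9b2, Pheta1 and Rufy4 (13.9%, beside 10.6% and 11.5%). Actin, cytoskeleton or microtubule terms were held by 5 members, among them Hspb7, Efr3b, Emp2 and Siglec15 (13.9%, beside 10.2% and 6.56%). Prdm1 was the only member with a DNA-binding transcription factor term (2.78%, beside 6.43% and 6.56%). The median exonic length was 3060 bases for the 23 coding members and 731 for the 13 non-coding ones, 2104.5 over all members, beside 3890 for the 61 induced genes with a higher ratio and 3661.5 for the tested genes without a pathway. These are descriptions without a test.

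Known osteoclast genes that are no members were tested for the same contrasts. The effector list held 23 genes, of which Mmp14, Calcr and Rab38 did not pass the expression filter. Of 18 tested osteoclast effector genes, 18 rose with RANKL, beside 27.4% of all tested genes. Their median log2 fold change was 3.15, beside −0.03 over all tested genes. With UD 15 fell and 1 rose, beside 20.2% and 18.6%, with a median of −0.58 beside 0.00. Itgb3 passed the filter only through its RANKL libraries (1.75, 1.29 and 1.27 FPKM), so the filter favoured its rise and its fall. The steepest falls were in Oscar, a collagen receptor (log2 fold change −1.53, SE 0.14, adjusted p = 2.02e-08), and Mmp9, a matrix protease (−1.34, SE 0.05, adjusted p = 2.12e-13). Car2, the carbonic anhydrase that supplies protons, rose by 0.29 (SE 0.06, adjusted p = 0.000281), from 100.1 ± 3.02 to 130 ± 2.23 FPKM. Slc9b2 and Siglec15 are members on this list and were not counted.

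Genes upstream of this program moved in both directions with RANKL, and their median fall with UD was smaller. Nfatc1 went from 10.5 FPKM in control to 76.1 in RANKL (log2 fold change 2.95) and 57.5 in RANKL + UD (−0.49, adjusted p = 1.37e-07). The AP-1 family genes Fosl2 and Jdp2 rose by 3.73 and 3.14 with RANKL. Of 26 tested RANK to NFATc1 signalling genes, 12 rose and 11 fell with RANKL, beside 27.4% and 30.2% of all tested genes. With UD 1 rose and 11 fell, beside 18.6% and 20.2%, with a median log2 fold change of −0.10. Fos, an AP-1 subunit (−0.81), and Mitf (−0.60), both transcription factors, had the largest falls, and Map3k7, the kinase TAK1, rose by 0.18 (adjusted p = 0.00879). Fos had already fallen with RANKL, from 196 to 35.9 FPKM (−2.36), and UD took it further from control, to 21.8. Mitf had risen with RANKL, from 27.2 to 43.9, and measured 30.7 with UD. Prdm1 is a member on this list and was not counted. Of 8 tested NFATc1 repressor genes, 4 fell with UD, among them Bcl6, a known target of Prdm1 (−0.94, adjusted p = 1.07e-09). Bcl6 had also fallen with RANKL (−0.53).

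**Figure D4:**
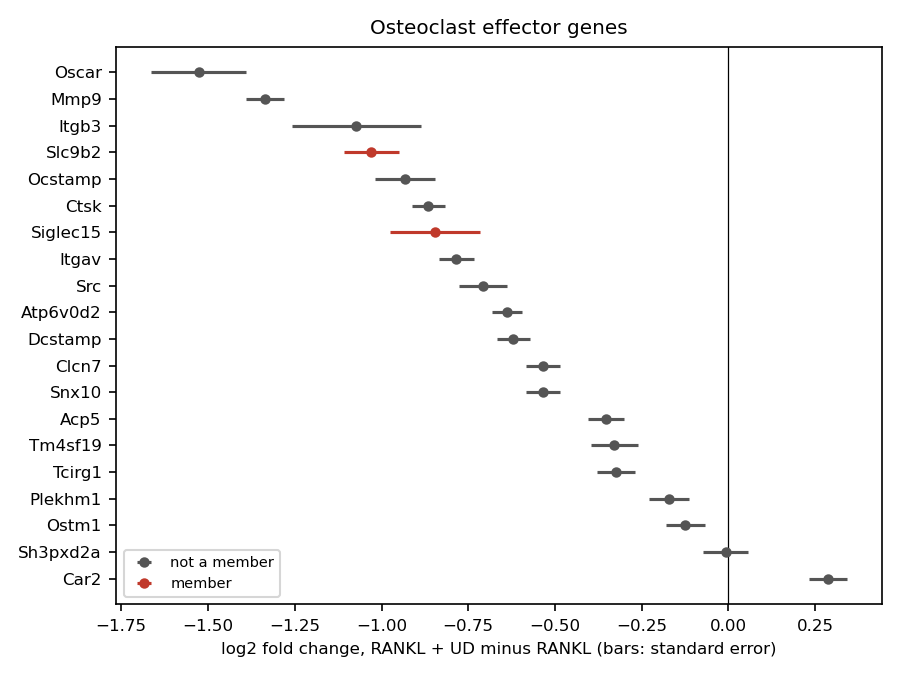
Fitted log2 fold change of RANKL + UD minus RANKL (horizontal, bars are the standard error) for osteoclast effector genes (vertical), with members in red and others in grey. Oscar and Mmp9 lie farthest left and Car2 lies to the right of 0.

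Genes next to the members were examined with a window of 30 kb that was chosen after the values had been seen. Of 42 tested genes within it, 22 (52.4%) rose and 7 (16.7%) fell with RANKL, beside 27.4% and 30.2% of all tested genes. With UD 4 (9.52%) rose and 14 (33.3%) fell, beside 18.6% and 20.2%. Bdh2, a dehydrogenase gene 3274 bases from Slc9b2 on the same strand, measured 0.19 FPKM in control, 10.0 in RANKL and 6.93 in RANKL + UD, and fell by 0.61 on the log2 scale with UD (adjusted p = 7.78e-05). Gm8941, 254 bases from C730036E19Rik on the same strand, was at 0 in control and fell by 1.00 with UD (adjusted p = 0.0158), a call that was lost when RANKL replicate 2 or RANKL + UD replicate 1 or 2 was left out. G530011O06Rik, 130 bases from Gm15726 on the same strand, went from 0.173 to 2.48 and 0.433 FPKM and fell by 2.59 with UD (adjusted p = 2.88e-07). It passed the expression filter only through its RANKL libraries, which favoured its rise and its fall.

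Other neighbours differed in the size and direction of their changes. Ceacam19, 4304 bases from Gm44659 on the same strand, fell with RANKL (log2 fold change −1.24) and again with UD (−0.90, adjusted p = 0.00179). Plcb4, a phospholipase gene 6944 bases from Platr3, measured 15.2 FPKM in control, 47.4 in RANKL and 47.0 in RANKL + UD, with a log2 fold change with UD of −0.10 (adjusted p = 0.138). Ccl9, a chemokine gene 3420 bases from E230016K23Rik, measured 261, 831 and 748 FPKM, so that it rose with RANKL and fell by 0.24 with UD (adjusted p = 0.000176). Of 9 tested genes that overlap a member, 6 (66.7%) fell and 1 (11.1%) rose with UD, beside 20.2% and 18.6%. Gtf2a1, a general transcription factor gene that hosts Gm25776, measured 13.97, 21.5 and 13.2 FPKM and fell by 0.79 (adjusted p = 4.47e-09), and Zwilch, on the opposite strand to Lctl, rose by 0.40 (adjusted p = 5.37e-05). The libraries are strand-specific by the labels, but whether counting used the strand is not given in the sources used here, so reads of overlapping genes cannot be told apart.

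**Figure D5:**
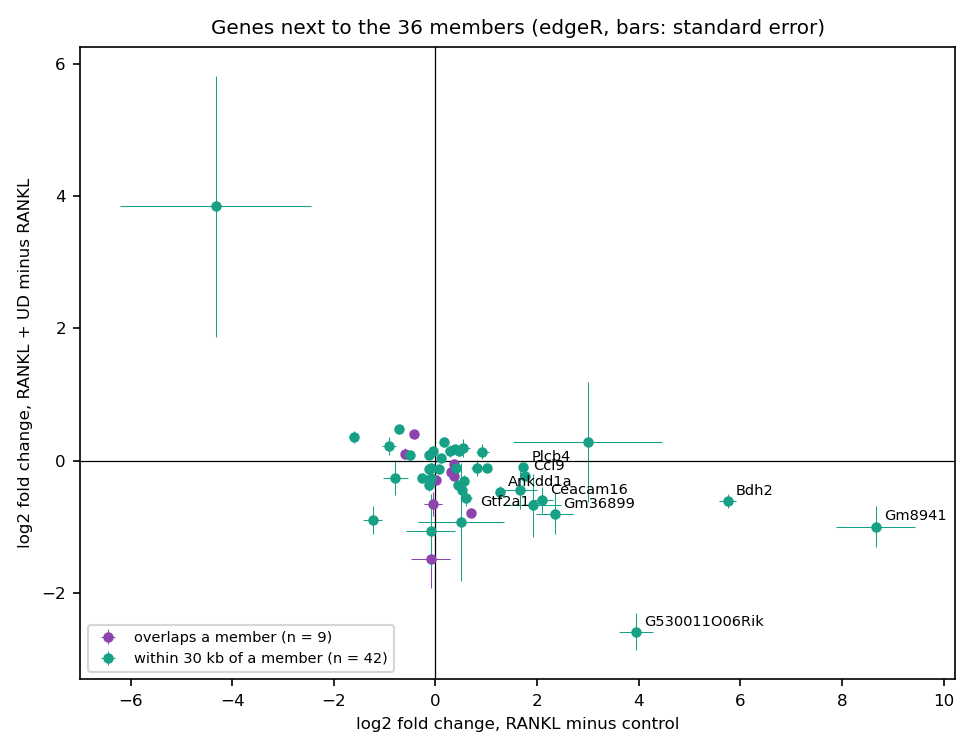
Fitted log2 fold changes with their standard errors for the tested genes that overlap a member (purple, n = 9) or lie within 30 kb of one (green, n = 42), with RANKL minus control on the horizontal and RANKL + UD minus RANKL on the vertical axis. Gm8941, Bdh2 and G530011O06Rik lie in the lower right, higher with RANKL and lower with UD.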

How the data were processed

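RNA of 9 RAW264.7 libraries was sequenced by the authors on an Illumina NovaSeq platform. The authors deposited whole-number counts per gene without normalization and FPKM, made from those counts, the exonic length and the library total. Recomputing the FPKM gave the deposited value for 100% of genes. The aligner and counting tool are not given in the sources used here. The submitters' processing notes name mm10, but 0 of 35 members had the same coordinates as in GENCODE M21 on GRCm38, so coordinates are given as deposited, with their build unsettled.

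The members and gene lists were chosen with earlier results of these data known. Counts were fitted with edgeR 4.0.16 (R 4.3.3, quasi-likelihood, TMM scaling, all 9 libraries, Benjamini-Hochberg adjustment, genes with 3 or more libraries at FPKM 1 or above). On simulated data, edgeR recovered 92.5% of 200 genes changed between RANKL and RANKL + UD among 11995, with 12 false calls. The simulation gave every gene the same extra spread and changed far fewer genes than were called here. It therefore did not test the scaling between groups. Replicates of one group differed by more than sampling noise (chi-square per degree of freedom 2.83 to 8.22). Values in every library are given for the 10 most abundant members in RANKL, the 8 lowest ratios, the 8 highest rises, members on the lists and members whose RANKL and RANKL + UD libraries overlap, and for lists the 2 largest passed changes in each direction. Values of a few such genes are left out of the text and plots. Counting intervals cover counting error only. Alternatives were a pseudocount of 1, TPM, medians, TMM-scaled FPKM, no filter, DESeq2 1.42.0, its size factors, limma 3.58.1 on log2(FPKM + 1) and log2(FPKM + 0.1), 6 libraries, the replicate number as a block and leaving out each library. Scaling by library totals alone was chosen after seeing the data. Tables were prepared with Python 3.11.15 and pandas 2.3.3.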

Additional observations from a re-analysis of the deposited data

How the results depend on the processing

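Membership moved most with the scale. A pseudocount of 1 gave 20 members, 16 of them shared, and TPM gave 99, 35 shared, since rescaling raises every value (FPKM summed to far less than TPM) and the floor of 3 is then easier to pass. Medians gave 35 (31 shared) and TMM-scaled FPKM 47, all 36 included. Leaving out each library gave 30 to 42, with 20 members present every time. Without RANKL replicate 1, 8 members were lost, among them all 4 small RNA genes. In the comparison of RANKL + UD with RANKL, 2420 genes were lower and 2232 higher (48.0% of calls higher). Limma gave 1556 lower on log2(FPKM + 1) and 1536 on log2(FPKM + 0.1), with 65.7% and 66.0% higher, and total counts gave 66.2% higher. In RANKL against control, 47.6% of calls were higher, and 36.9% with total counts or limma on log2(FPKM + 1). With total counts the median of all genes moved to −0.11 for RANKL against control. RANK to NFATc1 signalling genes higher with UD numbered 1, and 4 and 5 with limma (pseudocounts 1 and 0.1), 6 with total counts, and 1 to 2 when a library was left out. Among the members, tested neighbours and listed genes, none of the alternatives run reversed a called value. Other genes were not examined for this. Counted over genes, comparisons and alternatives, 150 member values moved by at least the SD between libraries and 1614 did not. For the neighbours and listed genes, 94 calls were lost, 76 were gained and 5563 stayed the same. The replicate numbers did not pair the libraries (correlations of −0.03 to 0.10), and the fit with the number as a block gave 2518 lower and 2342 higher genes and called 31 members lower with UD. Depth limits the small RNA genes, which had 1 to 35 counts in a RANKL library.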
